A study of Mus musculus with 9 samples.

Results

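The genes described are 8 that bind, sense or carry zinc, out of 18193 genes measured on arrays of sorted mouse podocytes. They are the metallothioneins Mt1, Mt2 and Mt3, the zinc-sensing transcription factor Mtf1, the zinc exporter Slc30a1 and the importers Slc39a1, Slc39a8 and Slc39a14. Every probe set whose platform symbol is exactly one of these names was taken, which gave 18 probe sets for the 8 genes. Mt1 and Mt2 were chosen by their rise in this same comparison, so their group difference is given as a description with no test. The other 6 were listed for what they do and were tested.

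Podocytes are the epithelial cells that cover the glomerular capillaries. The diabetic group was 5 OVE26 mice labelled OVE-GFP and the normal group 4 FVB mice labelled wild type, all on the FVB background and 3 to 4 months old. OVE26 mice overproduce calmodulin in pancreatic beta cells and become diabetic early in life. The diabetic line was crossed to FVB mice with a podocyte eGFP transgene. The labels name neither the promoter of that transgene nor whether the mice labelled wild type carried it. Glomeruli were collected with magnetic beads after collagenase, dissociated with trypsin and sorted for fluorescence, and the RNA of each mouse's sort was amplified and read on 1 array. Values are log2 intensities, differences are OVE26 minus FVB on that scale, and a spread is an SD over 5 OVE26 or 4 FVB arrays. In such sorts a change in the share of cells of a type and a change in RNA per cell cannot be told apart.

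Metallothioneins are small proteins, rich in cysteine, that bind zinc and copper and take up oxidants. Mt1 and Mt2 are made in most tissues and are induced together by zinc, glucocorticoids, cytokines and oxidative stress, whereas Mt3 is mainly a brain form. Free zinc activates MTF-1, the product of Mtf1, which binds metal response elements in the promoters of Mt1, Mt2 and Slc30a1. SLC30 proteins move zinc out of the cytosol, and SLC39 proteins move zinc into it.

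Arrays resembled each other across probe sets, with Pearson's r from 0.960 to 0.985 among OVE26 arrays and from 0.980 to 0.989 among FVB arrays, and array medians lay between 5.07 and 5.15. These r values are across probe sets, which are not replicates. Of 15 podocyte markers measured, 0 were below the 25th percentile of array values in both groups, a level of 3.31 taken here as the floor under which signal is not told from background. Over all genes 110 passed at an adjusted p under 0.05 (limma), or 0.605%, and in 6.26% of genes the groups did not overlap. FVB 2 was the highest FVB array in Mt1 and Mt2, and values are given with and without it.

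The sequences near each RefSeq start were searched for the core of the element that MTF-1 binds. RefSeq entries (GRCm38.p6) matched 7 of the 8 genes, and Slc39a14, which had no matching window, was not searched. The 250 bases before the RefSeq start are printed 5′ to 3′ on the gene's strand for the metallothioneins and for Slc30a1, the other well known MTF-1 target. Capitals mark the core of the metal response element, searched as TGCACNC and TGCGCNC on both strands.
Mt1 chr8:94178839-94179088 (+): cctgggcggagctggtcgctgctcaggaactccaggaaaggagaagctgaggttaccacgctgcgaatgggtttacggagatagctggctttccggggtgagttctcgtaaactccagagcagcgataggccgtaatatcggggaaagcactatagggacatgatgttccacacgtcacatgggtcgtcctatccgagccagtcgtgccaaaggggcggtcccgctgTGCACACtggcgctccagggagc
Mt2 chr8:94172368-94172617 (+): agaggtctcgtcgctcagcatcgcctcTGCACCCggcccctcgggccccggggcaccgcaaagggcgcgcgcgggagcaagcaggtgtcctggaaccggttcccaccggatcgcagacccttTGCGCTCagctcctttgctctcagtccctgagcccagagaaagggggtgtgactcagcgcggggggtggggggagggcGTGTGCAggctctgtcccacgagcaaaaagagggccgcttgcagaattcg
Mt3 chr8:94152357-94152606 (+): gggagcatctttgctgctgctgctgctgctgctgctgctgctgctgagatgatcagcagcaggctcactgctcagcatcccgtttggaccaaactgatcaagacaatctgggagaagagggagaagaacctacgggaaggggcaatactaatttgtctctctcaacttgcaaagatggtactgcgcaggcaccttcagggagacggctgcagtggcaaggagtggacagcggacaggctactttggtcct
Slc30a1 chr1:191906531-191906780 (+): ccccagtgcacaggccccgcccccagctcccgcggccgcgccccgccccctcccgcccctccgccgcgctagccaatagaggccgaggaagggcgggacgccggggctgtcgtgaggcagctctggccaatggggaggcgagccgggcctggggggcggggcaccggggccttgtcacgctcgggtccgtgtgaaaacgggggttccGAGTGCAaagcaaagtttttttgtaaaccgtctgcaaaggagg
In the whole window of 300 bases, which ends 50 bases after the start, the core occurred 4 times for Mt2, 3 times for Mt1, 2 times for Slc30a1 and 1 time for Mt3. Matches after the start, at 3 to 9 and 21 to 27 for Mt1, at 5 to 11 for Mt2, at 28 to 34 for Mt3 and at 31 to 37 for Slc30a1, are not printed above, so the line for Mt3 holds no capitals. No match was found for Mtf1 or Slc39a1, and Slc39a8 had 0 in the first of its windows and 1 in the second. The counts therefore depend on the start used, and other starts or more distant sequence were not searched. They do not rank the promoters of the members. At least 1 match was found in 25.7% of 32851 such windows, at least 3 in 1.97% and at least 4 in 0.517%. The windows counted did not cover every chromosome. The antioxidant response core TGACNNNGC, found in 12.4% of windows, occurred in those of Mt2, Slc30a1, Slc39a1 and Slc39a8. These matches are letters in a window, and no binding was measured. In Mt2 it lies at -79 to -71 and overlaps no metal response core.

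Mt1 and Mt2 were high in every OVE26 array and low in 3 of the 4 FVB arrays. Mt1 (probe set 1422557_s_at) read 9.67, 10.50, 10.44, 11.41 and 10.05 in the diabetic arrays 1 to 5, and 7.67, 9.57, 7.57 and 7.62 in the normal arrays 1 to 4. The groups did not overlap, as in 3.64% of all genes in this direction, but FVB 2 came close to the lowest OVE26 array. The means were 10.41 ± 0.65 (SD, n = 5) and 8.11 ± 0.98 (SD, n = 4), a difference of 2.31, or 4.94-fold. Without FVB 2 the FVB mean was 7.62 ± 0.05 and the difference was 2.79.

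Mt2 (1428942_at) read 9.58, 10.47, 10.17, 11.25 and 10.03 in the diabetic arrays, and 7.79, 9.13, 6.77 and 7.05 in the normal ones. OVE26 4 was again highest and OVE26 1 lowest of the diabetic arrays, and FVB 2 was again highest of the normal ones. Its means were 10.30 ± 0.62 (SD, n = 5) and 7.68 ± 1.06 (SD, n = 4), a difference of 2.62, or 3.10 without FVB 2. Among all genes ordered by their rise, Mt2 was at place 21 and Mt1 at place 35, which is how they came to be chosen.

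A second Mt1 probe set, 1451612_at, read 5.66, 7.23, 6.90, 8.003 and 6.24 in the diabetic arrays, and 4.61, 5.63, 3.81 and 4.82 in the normal ones. The order of arrays was close to that of the first set, and OVE26 1 was only just above FVB 2. Its difference was 2.09, or 2.39 without FVB 2. The suffix _s_at of the brighter set marks probes that can match more than 1 transcript, so it may also read transcripts other than Mt1.

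**Figure D1:**
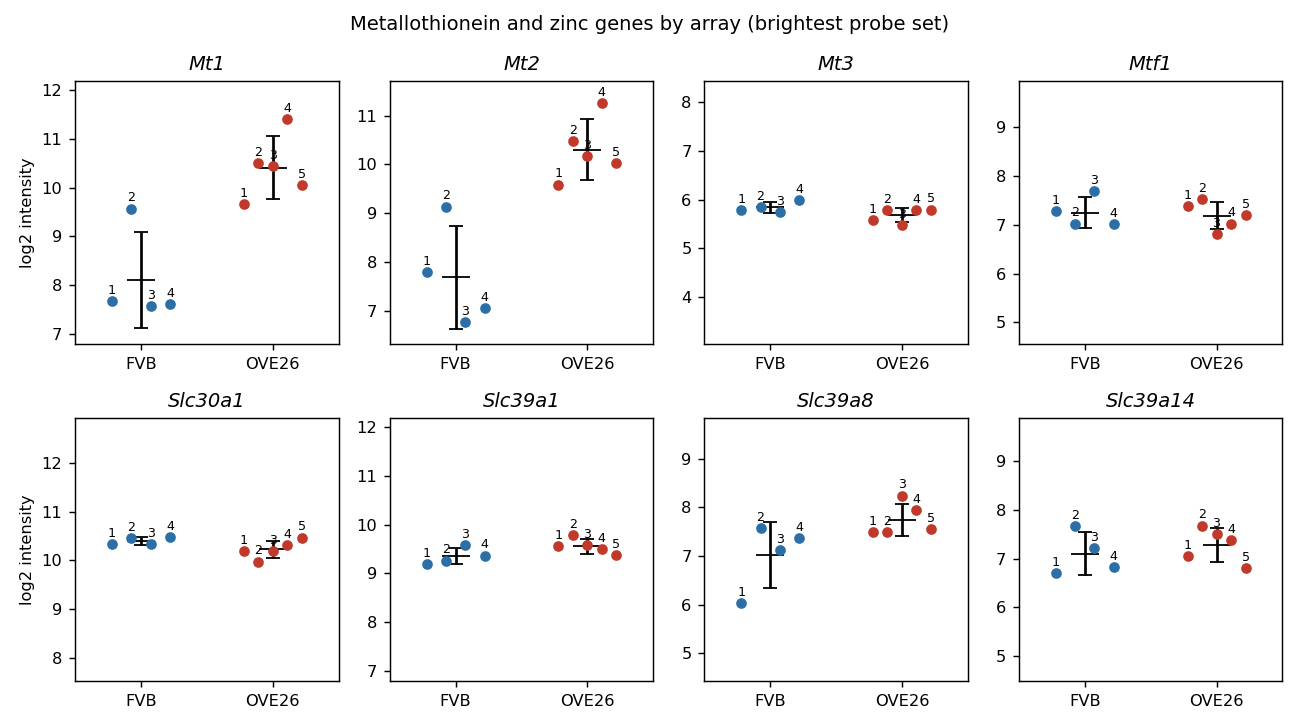
Log2 intensity of the brightest probe set of each gene (y axis, every panel spans the same range) in FVB and OVE26 arrays (x axis), with replicate numbers, and bars giving mean ± SD. Mt1 and Mt2 lie higher in all 5 OVE26 arrays and FVB 2 is the highest FVB array in both, at 9.57 for Mt1 and 9.13 for Mt2, while the other 6 genes overlap between groups.

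Mt3 did not pass. It read 5.57, 5.78, 5.47, 5.78 and 5.798 in the diabetic arrays, and 5.78, 5.84, 5.74 and 5.99 in the normal ones, so that the groups overlapped and FVB 2 was not apart. The difference was -0.16 with a 95% interval from -0.40 to 0.09 (limma, adjusted p = 0.556), an interval that does not reach the size of change seen in Mt1 and Mt2. Mt4, the metallothionein of stratified epithelium, was below the floor in both groups, at 2.85 and 2.76.

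The 4 metallothionein genes stand next to each other on chromosome 8, in the order Mt4, Mt3, Mt2 and Mt1 in the RefSeq table. The genes on either side, taken for their position alone after values had been seen, did not pass. Bbs2, a gene of the cilium, differed by 0.02 (limma, adjusted p = 0.977) and Nup93, a nuclear pore gene, by 0.32 (adjusted p = 0.351). One step further out, Ogfod1 differed by -0.46 (adjusted p = 0.345) and Slc12a3, the sodium chloride cotransporter of the distal convoluted tubule, by 1.52 (adjusted p = 0.148).

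None of the 6 tested members passed. By limma, 0 of 6 had an adjusted p under 0.05, against 0.605% of all genes. An unadjusted p under 0.05 was found for 1 (Slc39a8), against 15.1% of all genes. In 0 of the 6 were the groups apart, against 6.26% of all genes. Of their 15 probe sets 0 passed and in 0 were the groups apart, against 0.271% and 5.45% of all probe sets.

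Mtf1, the sensor that turns metallothionein genes on, did not differ detectably between groups. Its brightest probe set (1440414_at) read 7.38, 7.53, 6.81, 7.03 and 7.20 in the diabetic arrays, and 7.29, 7.02, 7.69 and 7.01 in the normal ones, fully overlapping. The difference was -0.06, with a 95% interval from -0.48 to 0.35 (limma, adjusted p = 0.925). All 5 of its probe sets had a difference below 0, from -0.27 to -0.03, and none passed. FVB 2, the normal array with high metallothionein signal, was not high in Mtf1. The sign of the brightest probe set turned when OVE26 3 (0.031, adjusted p = 0.963) or FVB 3 (0.083, adjusted p = 0.911) was left out.

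Slc30a1, which exports zinc across the plasma membrane and is itself an MTF-1 target, did not pass in either direction. The brighter probe set (1436164_at) read 10.19, 9.97, 10.18, 10.30 and 10.46 in the diabetic arrays, and 10.33, 10.46, 10.33 and 10.48 in the normal ones. OVE26 1 to 4 lay below all FVB arrays while OVE26 5 lay among them. The difference was -0.17, with a 95% interval from -0.43 to 0.08 (limma, adjusted p = 0.528). The other probe set (1422786_at) differed by -0.04 (adjusted p = 0.941 over all probe sets), and FVB 2 was within 0.14 of the mean of the other FVB arrays in both.

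Among the importers, Slc39a1, a widely expressed plasma membrane importer, read 9.56, 9.79, 9.58, 9.49 and 9.37 in the diabetic arrays, and 9.20, 9.26, 9.57 and 9.36 in the normal ones. All OVE26 arrays were above 3 of the FVB arrays, OVE26 5 only just, and FVB 3 lay among them. The difference was 0.21, with a 95% interval from -0.06 to 0.47 (limma, adjusted p = 0.461).

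Slc39a8, which also carries manganese and cadmium and is induced in inflammation, had the widest difference of the tested members. It read 7.49, 7.49, 8.24, 7.93 and 7.55 in the diabetic arrays, and 6.04, 7.57, 7.12 and 7.37 in the normal ones. FVB 1 lay far below the rest, and FVB 2 was above 3 of the OVE26 arrays. The difference was 0.72, with a 95% interval from 0.05 to 1.39 (limma, unadjusted p = 0.0378, adjusted p = 0.297). Without FVB 1 it was 0.39 (adjusted p = 0.535) and without FVB 2 it was 0.90 (adjusted p = 0.208). Its other probe set was below the floor in both groups.

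Slc39a14, which carries zinc, iron and manganese and is an acute phase gene in liver, read 7.05, 7.68, 7.496, 7.37 and 6.81 in the diabetic arrays, and 6.70, 7.67, 7.21 and 6.83 in the normal ones on its brightest probe set (1438490_at). FVB 2 was the highest FVB array here too, and OVE26 2 the highest of all. The difference was 0.18, with a 95% interval from -0.34 to 0.70 (limma, adjusted p = 0.792). Probe set 1427035_at differed by -0.41, 1425649_at by 0.12, and the last (1457770_at) was below the floor. With the mean of the 4 probe sets the sign of the difference turned, to -0.051 (adjusted p = 0.887).

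**Figure D2:**
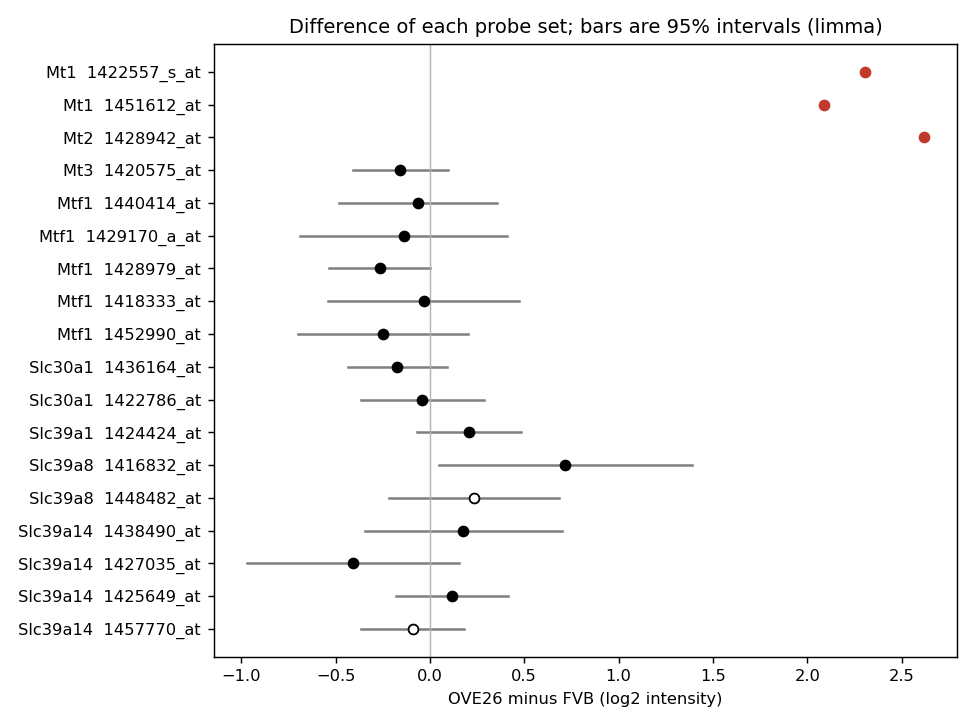
Difference between OVE26 and FVB (x axis, log2) for all 18 probe sets (y axis), with 95% limma intervals for the tested members and open circles for sets below the floor in both groups. Mt1 and Mt2, in red and without intervals because they were chosen for this difference, lie between 2.09 and 2.62, while the others lie between -0.41 and 0.72.

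In the rest of the zinc transporter families no gene was called. Of the 9 other Slc30 genes, 0 passed by limma, against 0.605% of all genes, so in a list this short a count of 0 is close to that share. Of these 9, 2 had an unadjusted p under 0.05, against 15.1% of all genes. Their median difference was 0.17, against 0.01 over all genes tested. Those with the smallest p were Slc30a7, a Golgi transporter, with a difference of 0.31 (adjusted p = 0.265), and Slc30a5, of the early secretory pathway, with 0.33 (adjusted p = 0.279). Slc30a4 differed by 0.19 (adjusted p = 0.467) and Slc30a10 was below the floor. Of the 11 other Slc39 genes, 0 passed, against the same 0.605%, and 0 had an unadjusted p under 0.05, against 15.1%. Their median was 0.00079. The largest difference was that of Slc39a11, 0.31 (adjusted p = 0.555), and Slc39a5 differed by -0.15 (adjusted p = 0.603). Slc39a2 and Slc39a12 were below the floor in both groups.

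Of 10 other genes reported as MTF-1 targets, 0 passed by limma, against 0.605% of all genes. Of these 10, 3 had an unadjusted p under 0.05, against 15.1% of all genes. Slc40a1, the iron exporter ferroportin, read 6.27, 5.76, 7.08, 6.35 and 6.65 in the diabetic arrays, and 5.22, 5.92, 4.55 and 5.39 in the normal ones. Only FVB 2 reached into the OVE26 range, and the difference was 1.15 (limma, adjusted p = 0.118). Gclc, the catalytic subunit of glutathione synthesis, differed by 0.73 (adjusted p = 0.230) and Ndrg1 by 0.41 (adjusted p = 0.312). The list's median was 0.13, with 3 of its genes below the floor.

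Of 16 copper genes, 0 passed by limma, against 0.605% of all genes, and 8 had an unadjusted p under 0.05, against 15.1%. In 5 the groups did not overlap, against 6.26% of all genes. Of these, the copper importer Slc31a1 (0.47, adjusted p = 0.152), the chaperone Ccs (0.34, adjusted p = 0.159) and the metalloreductase Steap4 (0.91, adjusted p = 0.264, with every FVB array below the floor and OVE26 1 and 5 close to it) were higher, and Sco1 and Slc31a2 were lower. Atox1, a copper chaperone, differed by 0.38 with overlapping groups (adjusted p = 0.208). Of 18 iron genes measured, 1 rose and 1 fell by limma, against 0.473% and 0.132% of all genes. In 4 of the 18 the groups did not overlap, against 6.26% of all genes. The riser was Lcn2, which binds iron-loaded siderophores (4.45, adjusted p = 0.00978, with the FVB mean of 3.18 below the floor). The mitochondrial iron importer Slc25a37 fell by 0.76 (adjusted p = 0.0436). Slc11a2, an importer of ferrous iron, differed by 0.78 (adjusted p = 0.0805) and passed without FVB 2 (0.90, adjusted p = 0.0346). Hmox1, which breaks down haem, differed by 0.66 (adjusted p = 0.103). Slc25a37 did not pass without OVE26 1, OVE26 2, OVE26 3, OVE26 5, FVB 1, FVB 3 or FVB 4, and 1 iron gene was then called each time.

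Glucocorticoids, interleukin 6 and oxidative stress are signals known to induce metallothioneins. Of 18 glucocorticoid targets, 2 rose by limma, against 0.473% of all genes in this direction, and 16 did not pass. The median difference was 0.93, with 17 of 18 above 0, against 9573 of all 18193 genes. Pdk4, the kinase that shuts off pyruvate dehydrogenase, rose by 3.31 (adjusted p = 0.00978) and Angptl4, an inhibitor of lipoprotein lipase, by 0.86 (adjusted p = 0.0403). Both are also targets of PPAR receptors. Angptl4 missed the threshold without OVE26 1, OVE26 3, OVE26 4, OVE26 5, FVB 1, FVB 3 or FVB 4, which left 1 gene of the list called each time.

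Fkbp5, a chaperone of the glucocorticoid receptor, read 8.98, 8.27, 9.20, 10.51 and 8.37 in the diabetic arrays, and 6.37, 8.45, 6.81 and 6.98 in the normal ones. As for the metallothioneins, OVE26 4 was the highest array and FVB 2 the highest FVB array, here inside the OVE26 range. Its difference was 1.92 (limma, adjusted p = 0.120), and 2.35 without FVB 2 (adjusted p = 0.0393). Glul, glutamine synthetase, differed by 0.99 (adjusted p = 0.123), and 1.23 without FVB 2 (adjusted p = 0.0393), so that 4 of the 18 were called without that array, when 2.02% of all genes were.

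Of 20 targets of interleukin 6 and STAT3, 1 rose by limma (Lcn2), against the same 0.473%, and 19 did not pass. The median was 0.53, with 19 of 20 above 0. Stat3 differed by 0.75 (adjusted p = 0.0523), the oncostatin M receptor Osmr by 1.05 (adjusted p = 0.101) and the fibrinogen chain Fgg by 2.80 (adjusted p = 0.104). In 7 of the 20 the groups did not overlap, against 6.26% of all genes. Stat3 passed without OVE26 5 (0.85, adjusted p = 0.0403), and the adhesion molecule Icam1 passed without OVE26 2 (2.11, adjusted p = 0.0430), which made 2 called genes each time. Of 15 NRF2 targets measured, 0 passed by limma, against 0.605% of all genes, and 7 had an unadjusted p under 0.05, against 15.1%. The median was 0.39, with 13 of 15 above 0. In 3 of the 15 the groups did not overlap, against 6.26% of all genes. Srxn1, which repairs peroxiredoxins, differed by 0.60 (adjusted p = 0.0723), Hmox1 by 0.66 (adjusted p = 0.103) and Nqo1, a quinone reductase, by 0.98 (adjusted p = 0.112). Gsta2, a glutathione transferase, read 10.11, 8.71, 10.95, 10.62 and 11.07 in the diabetic arrays, and 7.10, 10.16, 6.63 and 7.11 in the normal ones, with FVB 2 among the diabetic arrays. Its difference was 2.54 (adjusted p = 0.140), and 3.35 without FVB 2 (adjusted p = 0.0139), when 1 gene of the list was called, against 2.02% of all genes.

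How the arrays varied within each group is a measure that the choice of Mt1 and Mt2 did not use. Each gene was centred on its own group means, so that the group difference drops out, and compared over the 9 arrays. Mt1 and Mt2 varied together, with a Pearson's r of 0.948, and the Mt1 probe sets with each other at 0.868. All the points share the same 9 libraries. Among 10915 genes at or above the 40th percentile of level, Mt2 was at place 3 by likeness to Mt1 and Mt1 at place 4 by likeness to Mt2.

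The 6 named genes most like the mean of Mt1 and Mt2, out of 10498 that could be chosen, were taken from the top of that order. They were Wfdc2, a secreted protease inhibitor of epithelia (r = 0.982), Ripk4, a kinase of keratinocytes (0.971), Cdh1, the epithelial cadherin (0.953), Epcam, an epithelial adhesion molecule (0.941), Snhg4, a noncoding RNA (0.936), and Krt18, a keratin of simple epithelia (0.935). The highest of many r values is high by selection, and 1 in 100 of these genes exceeded 0.825. Without OVE26 4 and FVB 2, the arrays farthest from the middle, r over 7 arrays was 0.972 for Wfdc2, 0.939 for Ripk4, 0.913 for Cdh1, 0.824 for Epcam, 0.747 for Snhg4 and 0.935 for Krt18.

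Wfdc2 read 9.59, 10.86, 10.36, 11.30 and 9.99 in the diabetic arrays, and 7.58, 9.28, 6.60 and 7.07 in the normal ones. The order of arrays was that of Mt2 in both groups. Its difference was 2.79 (limma, adjusted p = 0.0516). Cdh1 read 6.99, 8.18, 8.01, 8.36 and 7.27 in the diabetic arrays, and 5.39, 7.42, 4.80 and 5.33 in the normal ones, with FVB 2 inside the OVE26 range (difference 2.03, adjusted p = 0.104). Krt18 rose by 2.76 (adjusted p = 0.0283), Epcam differed by 1.44 (adjusted p = 0.104) and Ripk4 by 2.29 (adjusted p = 0.126).

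The tested members were less like them. Their r with the mean of Mt1 and Mt2 was 0.643 for Slc39a14, 0.368 for Slc39a8, 0.221 for Mt3, 0.127 for Slc30a1, -0.278 for Slc39a1 and -0.447 for Mtf1. Without OVE26 4 and FVB 2, r was 0.339 for Slc39a14 and below that for the other 5 tested members.

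**Figure D3:**
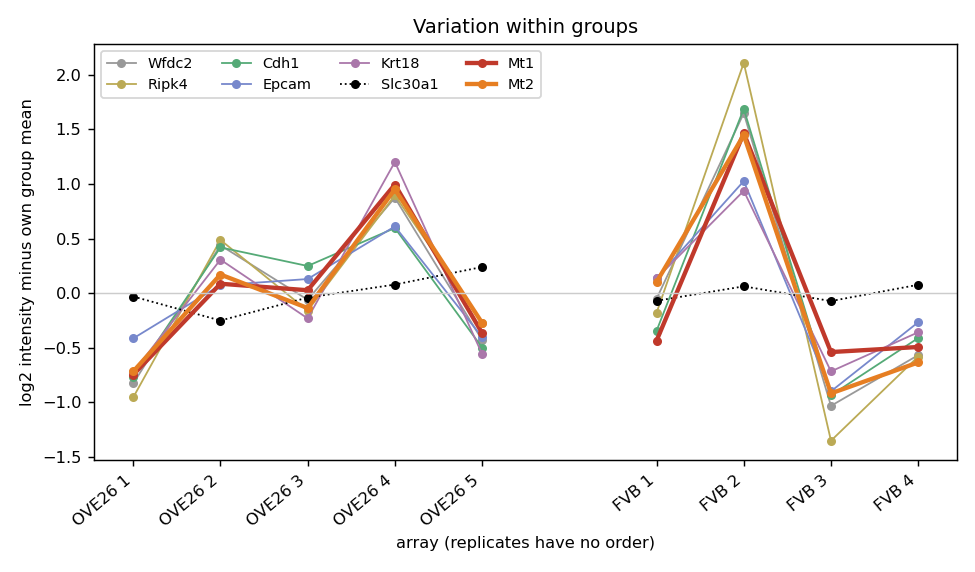
Log2 intensity minus the gene's own group mean (y axis) in each of the 9 arrays (x axis) for Mt1 and Mt2 (thick lines), 5 of the genes most like them and Slc30a1 (dotted). OVE26 4 and FVB 2 are the high arrays for Mt1, Mt2, Wfdc2, Cdh1, Epcam and Krt18, whereas Slc30a1 varies less.

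Markers of some other cell types were also higher in the arrays with high metallothionein signal, and their part in the result was not tested. The mean log2 level of 23 measured markers of the nephron from the loop to the collecting duct (the distal mean) ran from 7.49 to 8.72 in OVE26 and from 5.995 to 7.17 in FVB arrays. By limma 4 of these markers were higher and 0 lower, against 0.473% and 0.132% of all genes. The mean of 11 parietal epithelial markers, which include Krt8 and Krt18, ran from 7.75 to 8.52 in OVE26 and from 6.84 to 7.48 in FVB arrays. Of these, 3 were higher by limma, against the same 0.473%. Podocyte markers went the other way, from 10.50 to 10.99 in OVE26 and from 10.99 to 11.23 in FVB arrays, with 0 of 15 called, against 0.605% of all genes. FVB 2 had the lowest podocyte and proximal means of the FVB arrays and the highest distal, parietal, macrophage, endothelial and mesangial means. OVE26 4 had the highest parietal and the lowest podocyte mean of the OVE26 arrays, while its distal mean was in the middle. None of the distal or parietal markers was below the floor in both groups.

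Macrophage markers ran from 4.98 to 6.33 in OVE26 and from 4.74 to 5.17 in FVB arrays. By limma 0 of 20 were called, against 0.605% of all genes, and Adgre1, C1qc and Itgam were below the floor in both groups. Proximal tubule markers overlapped, from 6.51 to 9.19 and from 8.25 to 9.15, as did endothelial and mesangial ones. Within groups, over 9 arrays, the r of the metallothionein mean was 0.872 with the parietal mean, 0.553 with the distal, 0.519 with the endothelial, 0.329 with the mesangial, 0.246 with the macrophage, -0.308 with the proximal and -0.711 with the podocyte mean. Over the 7 arrays without OVE26 4 and FVB 2 these were, in the same order, 0.429, 0.756, 0.417, 0.326, -0.116, -0.592 and -0.539. Over the 8 arrays without FVB 2 alone they were 0.828, 0.254, 0.182, 0.217, 0.064, -0.235 and -0.792. The order of the parietal and distal means thus depended on which arrays were left out. The parietal mean includes Krt18, which was named above for its likeness to Mt1 and Mt2 (r = 0.935), so the results are not separate. No parietal mean without Krt18 was computed.

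With a marker mean as a covariate in limma the difference of the metallothioneins became smaller. With the distal mean it was 1.23 (SE 0.73) for Mt1 and 1.399 (SE 0.73) for Mt2. With the parietal mean, which includes Krt18, it was 0.0030 (SE 0.50) and 0.34 (SE 0.58). With the podocyte mean it was 0.97 (SE 0.55) and 1.33 (SE 0.61). Both of these covariates were added after the values were seen. With the macrophage mean it was 1.86 and 2.28, and with the proximal mean 2.25 and 2.55. None of the distal, parietal and podocyte means overlapped between the groups, so these fits compare arrays at marker levels that no array of the other group had, and marker level and diabetes cannot be told apart.

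**Figure D4:**
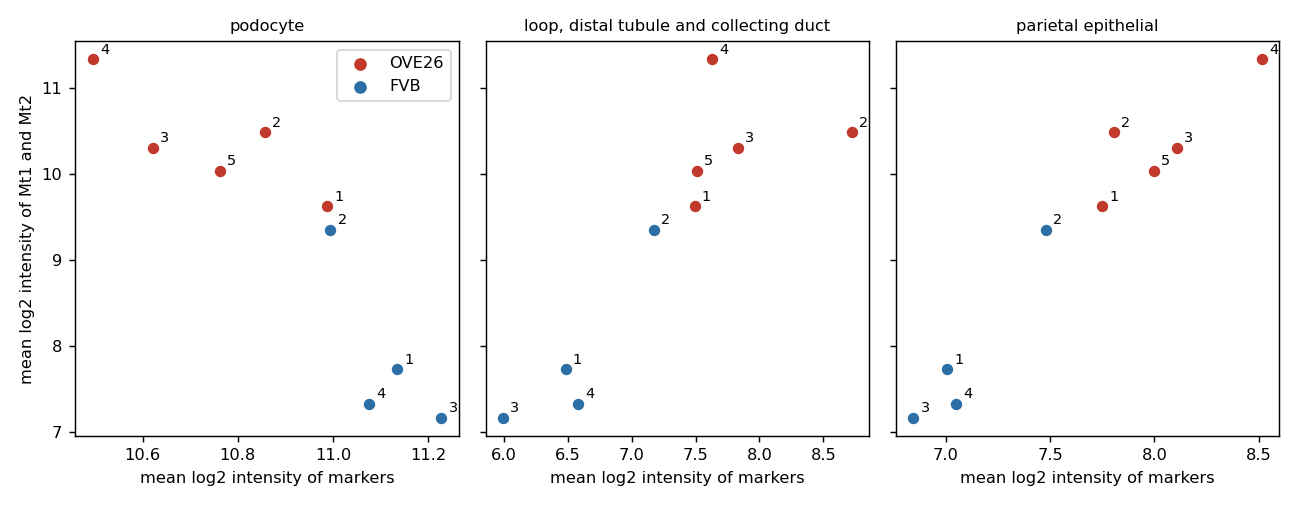
Mean log2 intensity of Mt1 and Mt2 (y axis) against the mean log2 intensity of markers of 3 cell types (x axes), 1 point per array with its replicate number, OVE26 in red and FVB in blue. FVB 2 lies toward the OVE26 arrays in all panels, and OVE26 4 has the highest metallothionein level with the highest parietal and lowest podocyte mean.

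**Figure D5:**
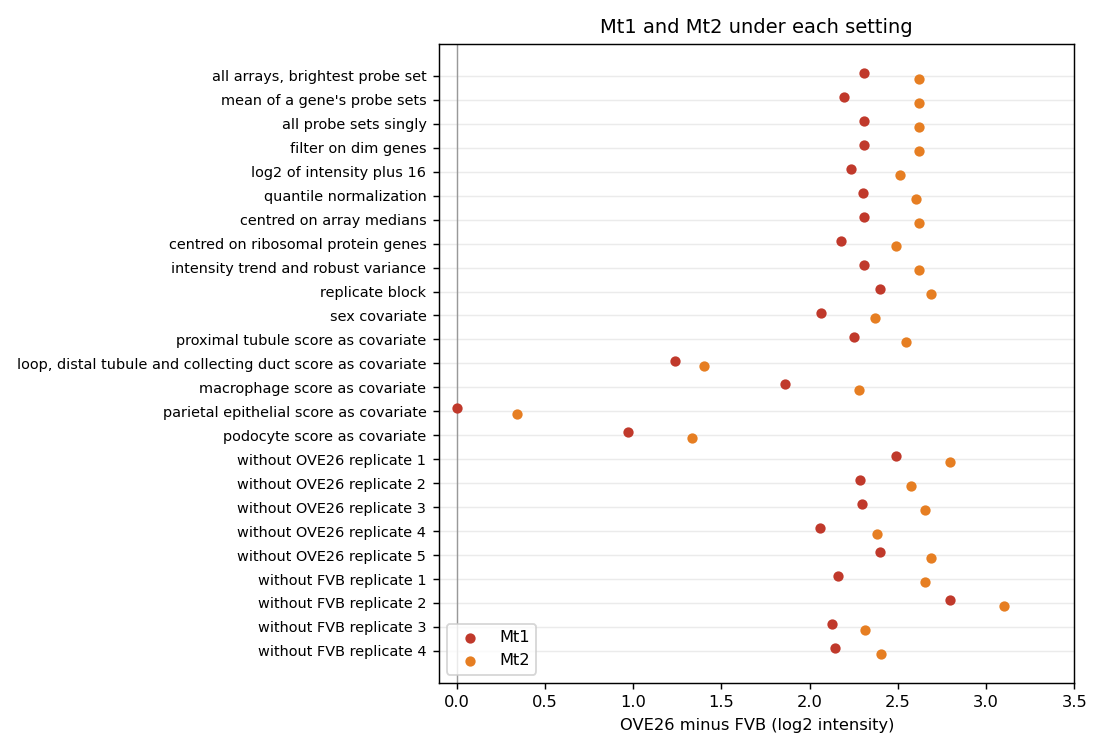
Difference between OVE26 and FVB (x axis, log2) of Mt1 and Mt2 with all arrays and under each alternative setting (y axis). Both stay between 1.86 and 3.10 except with the distal, parietal or podocyte marker means as covariates, where they fall to between 0.0030 and 1.399.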

How the data were processed

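Per the labels, a PicoPure kit (Arcturus) gave the RNA and NuGen kits its amplified, biotinylated copies. Per the submitters' processing notes the authors used RMA and Partek, and no version or setting is given in the sources used here. Each deposited value is a linear intensity per probe set, as its range shows, which was converted to log2. The number of arrays limits precision (median standard error over genes 0.16). Whether the spread between arrays comes from mice, sorts or amplification cannot be told apart.

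Of 45101 probe sets, 64 controls were left out. Of the rest, 34945 had 1 symbol, 932 several and 9160 none. A gene's brightest probe set was used, and all probe sets were fitted too. Groups were compared with limma 3.58.1 (lmFit, eBayes, 2-sided) in R 4.3.3, adjusting p by Benjamini-Hochberg across all 18193 genes, called under 0.05, after a check on simulated data. The members and lists were chosen with earlier results of these data known. Named were the members, up to 4 genes of each list with the smallest p, and the 6 genes most like Mt1 and Mt2 within groups, leaving out clones. Bbs2, Nup93, Ogfod1, Slc12a3, Sco1, Slc31a2, Icam1 and Mt4 were named after their values were seen. Listed genes Trf, Ftl1, G6pdx, Prdx1 and Gsta1 were not analysed here.

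The alternatives were the gene summary, a filter at the 40th percentile of level, an offset of 16 before log2, quantile normalization, centring on medians or on ribosomal protein genes, a variance trend, the replicate block, covariates, and leaving out each array. The sex covariate was not a recorded sex. It was the log2 level of Xist minus the mean of Ddx3y, Eif2s3y, Kdm5d and Uty, where measured, on the same array.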

Additional observations from a re-analysis of the deposited data

Results flagged for a closer look

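Of 36 groups of arrays, 1 for each of 18 probe sets in each genotype, 5 held an array far from the others by Dixon's criterion, which chance alone meets in about 1 in 20 groups. In Mt1 (1422557_s_at) FVB 2 was at 9.57, and the next FVB array was at 7.67. In Slc39a8 FVB 2 was at 1.496 on the probe set below the floor (1448482_at), where the next array was at 2.29. In Slc39a14, FVB 3 was at 5.90 on 1427035_at, FVB 1 at 3.15 on 1425649_at and OVE26 4 at 2.97 on 1457770_at, the last below the floor.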

How the results depend on the processing

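Mt1 and Mt2, which were chosen by this rise, differed by 2.06 to 2.79 and by 2.31 to 3.10 when 1 array was left out, and 2.396 and 2.68 with the replicate block, which covers numbers 1 to 4 and so leaves out OVE26 5. They moved by more than the spread between replicates with the distal score (1.23 and 1.399), the parietal score (0.0030 and 0.34) and the podocyte score (0.97 and 1.33). Of the 6 tested members 0 passed under any of the 24 alternatives, and the same held for the zinc exporter, zinc importer, MTF-1 target and copper lists. With the distal, macrophage, parietal or podocyte score, or without FVB 3, at most 8 of all 18193 genes were called. A count of 0 was nearly fixed in advance under those settings. The sign turned for Mtf1 with the distal (0.032), macrophage (0.43), parietal (0.62) and podocyte (0.46) scores and without OVE26 3 (0.031) or FVB 3 (0.083), with a range from -0.15 to 0.083 when 1 array was left out. It turned for Slc39a14 with the mean of its probe sets (-0.051) and with the distal (-0.46), parietal (-0.29) and podocyte (-0.071) scores, and for Slc39a8 with the parietal score (-0.11). The cause was not tested.

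Over all genes the calls numbered 110, and from 8 (without FVB 3) to 367 (without FVB 2) when 1 array was left out. They were 166 with the filter on dim genes, 179 with the variance trend, 19 with the replicate block and without OVE26 5 (30 without OVE26 5 alone), 41 with the sex covariate, 0 with the distal score (1603 at an unadjusted p under 0.05 by limma), 2 with the macrophage score, and 1 with the parietal or the podocyte score. Centring on ribosomal protein genes moved the median difference of all genes to -0.12, and 55.3% of calls were then higher against 78.2%. With an offset of 16 the share was 67.7%, and with the replicate block 100%.

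The share of all genes called was 0.605%, and from 0.0440% (without FVB 3) to 2.02% (without FVB 2) with 1 array left out. With the distal, macrophage, parietal and podocyte scores it was 0.00%, 0.0110%, 0.00550% and 0.00550%. Counts of 0 in a list under those scores are therefore not particular to that list. With the other settings the share ran from 0.104% (replicate block) to 1.52% (filter on dim genes). Iron genes called were 2, and from 1 to 3 with 1 array left out. Their number was 1 with all probe sets singly, the replicate block, the sex covariate or the proximal score, and 0 with the distal, macrophage, parietal or podocyte score. Glucocorticoid targets called were 2, and from 1 to 4. Their number was 1 with the mean of probe sets, all probe sets, ribosomal centring, the block or the sex covariate, and 0 with those same 4 scores. Interleukin 6 and STAT3 targets called were 1, and from 1 to 2. Their number was 2 with the filter on dim genes or the variance trend and 0 with those 4 scores. NRF2 targets called were 0, from 0 to 1, and 1 with the mean of probe sets. The block changed no call of a member. Replicate numbers 1 to 4 occur in both groups, but deviations of arrays with the same number correlated at r from -0.21 to 0.13 across genes and the labels give them no shared source, so they were not taken as pairs. Signal below the floor limits Mt4, Slc39a8 on 1448482_at and Slc39a14 on 1457770_at, and signal close to it limits Slc39a14 on 1425649_at.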
